A study of Rattus norvegicus with 4 samples.

Results

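Ly49-expressing T cells are lymphocytes that carry transcripts of the T cell receptor complex together with transcripts of Ly49 receptors, a family better known from natural killer (NK) cells. They were taken from 4 single-cell RNA-seq libraries of rat liver by a rule on transcript counts. A retained barcode was a member when it held at least 1 unique molecular identifier (UMI) of Cd3d, Cd3e or Cd3g and at least 2 UMIs summed over Klra22, Ly49i4, Ly49s5, Ly49s6 and Ly49s7. It also had to hold no UMI of Cd79a, Clec4f, Csf1r and Stab2, markers of B cells, Kupffer cells, macrophages and sinusoidal endothelium. The rule found 125 members among 35901 retained barcodes. The Cd3 and Ly49 counts chose these cells, so their levels are given as a description and tested nowhere.

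All livers came from Lewis rats, and each group was 1 library. The NEVLPcty liver was perfused outside the body for 4 h at 37 °C with interleukin-10 (IL-10) and transforming growth factor-β (TGF-β) added. The NEVLP2 liver was perfused for the same time and at the same temperature without the 2 cytokines. The CS liver was kept in cold storage for 4 h at 4 °C, and the naive liver was not preserved. Both perfused livers shared a perfusate of William's E medium with penicillin and streptomycin, pyruvate, glutamine, insulin, hydrocortisone, papaverine, heparin, human albumin and red blood cells of Lewis rats depleted of leukocytes, so insulin and a glucocorticoid came with warmth and flow. That CS means cold storage, and the ending cty the added cytokines, was taken from the series description, which does not explain the digit in NEVLP2. Neither age and sex nor the number of rats is stated in the sources used here, nor is the way cells were isolated. With 1 library per group no difference below has a replicate check, cells are not replicates, and no p-value is given.

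Ly49 proteins are lectin-like receptors of rodents, encoded in the NK gene complex, that bind MHC class I molecules on other cells. Inhibitory members carry a cytoplasmic motif that recruits phosphatases, and activating members pair with the adaptor Tyrobp (DAP12), which recruits the kinase Syk. In mice, Ly49 receptors are found on a fraction of memory-like CD8 T cells as well as on NK cells, and some Ly49-bearing CD8 T cells there have been described as regulatory. Gene roles below are known mostly from mice and humans. In the rat names used here, s stands for stimulatory and i for inhibitory receptors.

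The members were defined by 5 related genes of chromosome 4, and their promoters are shown as a description of the family. All 5 matched a RefSeq promoter (assembly GRCr8), and 250 bases before each gene start were searched for shared letters. The longest run of letters that Klra22, Ly49s5, Ly49s6 and Ly49s7 shared had 14 letters, and it is in capitals in the 100-base windows below, each written 5′ to 3′ along the minus strand that encodes the gene. The windows lie at chr4:165743047-165743146, chr4:165645519-165645618, chr4:165790124-165790223 and chr4:166511332-166511431.
Klra22: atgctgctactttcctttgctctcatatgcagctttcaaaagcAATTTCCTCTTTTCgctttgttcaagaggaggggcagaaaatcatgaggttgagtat
Ly49s5: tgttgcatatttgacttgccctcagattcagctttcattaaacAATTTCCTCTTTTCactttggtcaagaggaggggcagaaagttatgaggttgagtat
Ly49s6: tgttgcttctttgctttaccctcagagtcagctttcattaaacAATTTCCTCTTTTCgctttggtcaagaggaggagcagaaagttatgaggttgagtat
Ly49s7: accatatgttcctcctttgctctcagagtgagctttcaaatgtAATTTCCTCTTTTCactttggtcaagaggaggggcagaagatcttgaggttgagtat
The run began 78, 59, 110 and 95 bases before the gene start of Klra22, Ly49s5, Ly49s6 and Ly49s7, in that order. Read along the coding strand only, it was found in 9 of 33469 RefSeq promoters (0.0269%), of which 8 carry a Ly49 or Klra symbol. It was not found in the Ly49i4 window. Identity was taken over longer windows that also run past the gene start. It was 61.0 to 71.2% among the windows of Klra22, Ly49s5, Ly49s6 and Ly49s7, and 38.8 to 51.0% between each of these and that of Ly49i4. These letters are a description of the sequence and not a binding site. Counts of single Ly49 genes below are uncertain, because reads of related genes may be counted for one another. Transcripts were not compared, so this was not tested, and promoters cannot decide it. In RefSeq the gene Klra5 overlaps Ly49s7.

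The libraries held 72271060 UMIs in NEVLPcty, 65893218 in NEVLP2, 67431270 in CS and 25609611 in naive liver. Retained barcodes numbered 11616, 10186, 10798 and 3301 in the same order, so the naive library was the smallest. Pairs of libraries shared 7 to 32 retained barcode sequences, and no member barcode was shared. Members held 139305 UMIs in total in NEVLPcty, 291704 in NEVLP2, 124628 in CS and 812973 in naive liver, with a median per cell of 7444, 6622, 9235 and 11914 UMIs. The deepest cell gave 11.8% of the member UMIs in NEVLPcty, 8.76% in NEVLP2, 11.5% in CS and 10.3% in naive liver. Levels are therefore given per 1000000 UMIs of the summed members (CPM), and intervals are exact Poisson, exact binomial or, for ratios, exact conditional 95% intervals that cover counting error only.

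There were 17 members in NEVLPcty, 36 in NEVLP2, 14 in CS and 58 in naive liver. They made up 0.146% of retained barcodes in NEVLPcty (interval 0.0853 to 0.234), 0.353% in NEVLP2 (0.248 to 0.489), 0.130% in CS (0.0709 to 0.217) and 1.76% in naive liver (1.34 to 2.27). The naive share lay above the other 3 and the NEVLP2 share above those of NEVLPcty and CS, beyond counting error. All barcodes with a Cd3 transcript varied too, so members were also set against these. They were 10.1% of 169 such barcodes in NEVLPcty (5.97 to 15.6), 7.88% of 457 in NEVLP2 (5.58 to 10.7), 5.36% of 261 in CS (2.96 to 8.84) and 14.4% of 404 in naive liver (11.1 to 18.2). Among barcodes with a Cd3 transcript, the naive share exceeded those of NEVLP2 and CS beyond counting error and overlapped that of NEVLPcty. Such barcodes need not all be T cells. Those without a Ly49 or Cd8 UMI numbered 119, 347, 193 and 264 in NEVLPcty, NEVLP2, CS and naive liver. In them a list of dendritic cell and MHC class II genes summed to 18979, 27622, 20003 and 9157 CPM. The part of stray Cd3 UMIs in these shares was not tested. Which cells a library holds also depends on how the liver was dissociated, and its part in these shares was not tested.

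**Figure D1:**
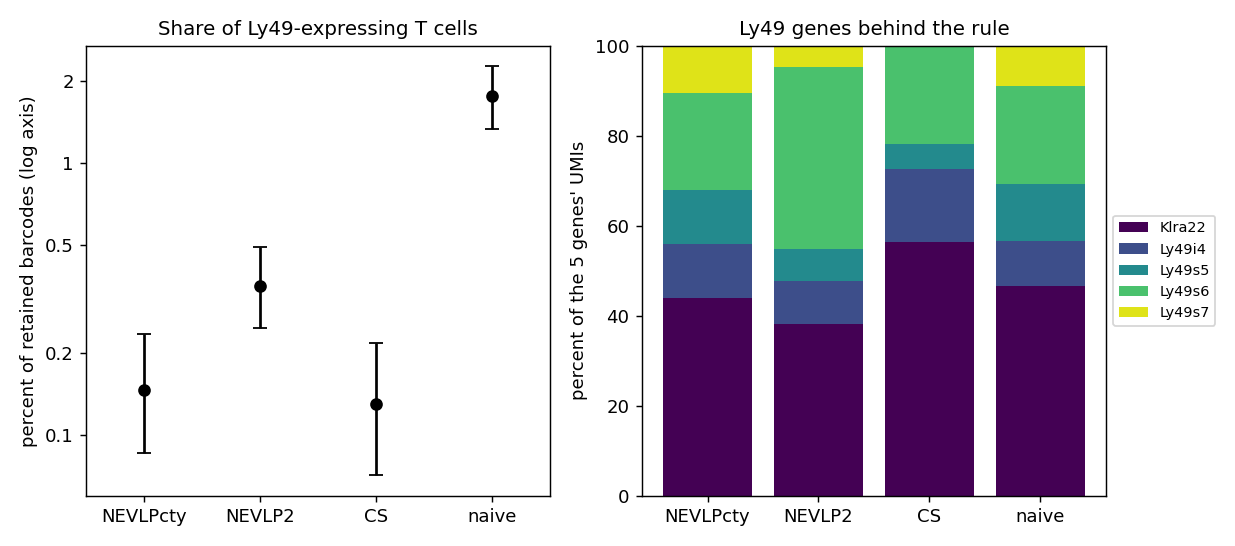
Share of Ly49-expressing T cells among retained barcodes on a log axis, with exact 95% binomial intervals for counting error (left), and the percent of the 5 rule genes' UMIs that each gene gave in members (right), per library. The naive library stands highest at 1.76%, and Ly49s6 gave 40.5% of these UMIs in NEVLP2 against 21.6 to 21.9% elsewhere.

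The edge of the rule was thinly populated on the Ly49 side. Members with exactly 2 Ly49 UMIs numbered 5 in NEVLPcty, 4 in NEVLP2, 3 in CS and 3 in naive liver, and barcodes left just outside with 1 Ly49 UMI numbered 6, 14, 2 and 6. Members with a single Cd3 UMI numbered 0, 2, 0 and 4 in the same order. The median member held 16 Cd3 UMIs in NEVLPcty, 25.5 in NEVLP2, 30.5 in CS and 36.5 in naive liver, so most members were far inside the Cd3 limit. The 4 exclusion genes removed 3, 9, 5 and 5 further barcodes.

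The label was checked against T cell and NK cell markers that the rule did not use. Cd8a, which encodes the CD8 alpha chain found on T cells and on rat NK cells, had a UMI in 16 of 17, 33 of 36, 13 of 14 and 56 of 58 members of NEVLPcty, NEVLP2, CS and naive liver. Cd8b, whose beta chain is made by CD8 T cells, had 158 CPM in NEVLPcty, 250 in NEVLP2, 233 in CS and 134 in naive members, while Ly49-positive barcodes without a Cd3 transcript had 0, 0, 0 and 2.53 CPM. It was seen in 6, 16, 9 and 34 members, and Cd4 in 0, 1, 1 and 4. Lck, the kinase next to the T cell receptor, had 775, 672, 650 and 513 CPM, and the T cell surface protein gene Cd6 had 208, 96.0, 177 and 164 CPM. The T cell list, which holds Lck, Cd6, Cd8a and Cd8b, summed to 3632, 3318, 4140 and 3384 CPM in members. In Cd3-negative Ly49-positive barcodes it summed to 2057, 1826, 2586 and 2402 CPM, under 2-fold lower. Of its other genes, Cd5 had 0 UMIs in NEVLP2 members and few elsewhere, and Cd28 was sparse outside naive members. Ncr1, which encodes the NK receptor NKp46, had 0 CPM in NEVLPcty members, 20.6 in NEVLP2, 0 in CS and 28.3 in naive members, against 138 to 392 CPM in the Cd3-negative Ly49-positive barcodes. The 3 gamma-delta T cell genes among the features gave 0 to 1 UMI per library, and Zbtb16, a transcription factor of innate-like T cells, gave none. Another NK gene, Klrb1a, had a UMI in 10, 23, 10 and 48 members. The NK cell list, which holds Ncr1, Klrb1a and Tyrobp, summed to 2505, 2657, 1613 and 2785 CPM in members. It summed to 10329, 10013, 12643 and 10965 CPM in Cd3-negative Ly49-positive barcodes. Barcodes with a Cd3 and a Cd8a or Cd8b UMI but no Ly49 UMI had 4675, 4685, 9145 and 3530 CPM, above the members. A stricter set of these held at least 5 Cd3 UMIs, no UMI of a list of B cell genes, and under 1% each of MHC class II and hepatocyte UMIs. These stricter CD8 T cells without Ly49 had 487, 432, 754 and 214 CPM, below the members, which were not filtered in this way. Most members thus had the CD8 alpha chain and T cell transcripts, few had Ncr1, and most had Klrb1a. The 2 NEVLP2 and 4 naive members with a single Cd3 UMI looked more like NK cells. Each of them held Tyrobp UMIs and no Cd8b UMI, and most held an Ncr1 UMI. The T cell label is least sure for these members, which are kept in the sums below. Whether they are NK cells was not tested. T cell receptor constant genes were not analysed here.

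Klra22 and Ly49s6 carried most of the Ly49 transcripts of the members. Klra22 gave 44.0% of the 5 genes' UMIs in NEVLPcty, 38.1% in NEVLP2, 56.5% in CS and 46.7% in naive members. Ly49s6 gave 21.6%, 40.5%, 21.7% and 21.9% in the same order, so NEVLP2 members stood apart by a larger Ly49s6 share. In CPM, Ly49s6 had 194 in NEVLPcty, 473 in NEVLP2, 281 in CS and 266 in naive members. Ly49i4 gave 9.68 to 16.1% and Ly49s5 gave 5.59 to 12.7% of the UMIs. Ly49s7 gave 10.4%, 4.69%, 0% and 8.92%, and its UMIs came from 3, 2, 0 and 14 cells.

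Several Ly49 genes were often found in 1 cell. Only 1 of the 5 genes was seen in 3 of 17 NEVLPcty, 12 of 36 NEVLP2, 4 of 14 CS and 15 of 58 naive members, and all 5 were seen in 2 naive members. Klra22 and Ly49s6 were found together in 10, 20, 10 and 29 members. Because the genes are related, part of this overlap may be reads of 1 gene counted for another, which was not tested. Klra22 was the gene that set members apart from Cd3-negative Ly49-positive barcodes, with 395 CPM in NEVLPcty, 446 in NEVLP2, 730 in CS and 566 in naive members, against 16.5, 49.1, 47.1 and 172 CPM in those barcodes. Ly49s5 ran the other way, with 108, 82.3, 72.2 and 154 CPM in members and 342, 310, 250 and 360 CPM in the Cd3-negative barcodes.

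Other lectin-like receptors of the NK gene complex were present too. Klrd1 (CD94), the partner of the NKG2 receptors, had 409, 463, 690 and 605 CPM in NEVLPcty, NEVLP2, CS and naive members. Klrk1 (NKG2D), which binds stress-induced ligands, had 136 CPM in NEVLPcty, 353 in NEVLP2, 249 in CS and 149 in naive members. It was 2.59-fold lower in NEVLPcty than in NEVLP2 (1.58 to 4.47) and 2.37-fold higher in NEVLP2 than in naive members (1.81 to 3.11). Klre1, whose product forms receptors with other lectin-like chains, had 122, 99.4, 377 and 319 CPM. It was 3.20-fold lower in NEVLP2 than in naive members (2.18 to 4.88), so receptors of 1 gene complex did not move as a block.

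The members were not uniform, and a split by Tyrobp, chosen after its values were seen, separated members that differed in other genes too. Tyrobp, the adaptor of activating Ly49 receptors, had a UMI in 7 of 17 NEVLPcty, 18 of 36 NEVLP2, 3 of 14 CS and 19 of 58 naive members. Its level was 983 CPM in NEVLPcty, 1142 in NEVLP2, 24.1 in CS and 606 in naive members. CS was 25.2-fold lower than naive (8.57 to 123), and NEVLP2 was 47.4-fold higher than CS (16.1 to 231). Among hepatocyte barcodes, 8.50%, 22.9%, 17.5% and 8.76% had a Tyrobp UMI at a median depth of 1495 to 1880 UMIs, below the members' depth. The part of free RNA or doublets in such counts was not tested.

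Gzma was seen in a larger share of members with Tyrobp, and Lef1 and S1pr1 in a larger share of members without it. Killing genes were not all split this way. The cathepsin gene Ctsw had 1299, 1185, 1624 and 981 CPM with Tyrobp in NEVLPcty, NEVLP2, CS and naive members, against 1521, 2044, 1529 and 1138 without. The granule protein gene Nkg7 had 1706, 2654, 79.2 and 1398 CPM with Tyrobp, against 822, 2066, 865 and 734 without. In CS, Gzma had 238 CPM with Tyrobp and 1036 without. Gzma, which encodes the protease granzyme A, was seen in 6 of 7 NEVLPcty, 15 of 18 NEVLP2, 1 of 3 CS and 13 of 19 naive members with Tyrobp. Among members without Tyrobp it was seen in 0 of 10, 10 of 18, 3 of 11 and 4 of 39. Lef1, which encodes a transcription factor that resting T cells keep on, was seen in 1, 1, 2 and 8 members with Tyrobp and in 8, 6, 9 and 29 members without it. S1pr1, the receptor that lets T cells leave tissue, was seen in 1, 3, 0 and 5 members with Tyrobp and in 7, 4, 5 and 30 without it. The summed Cd3 UMIs had medians of 16, 23.5, 20 and 13 per cell with Tyrobp, against 18, 26, 31 and 39 without, so the gap in Cd3 was widest in naive liver. Median depth was 6321, 6008, 6396 and 9902 UMIs with Tyrobp, against 7833, 7052.5, 9275 and 12317 without. Siglech, a receptor of plasmacytoid dendritic cells, had 0, 11, 0 and 40 UMIs, from 0, 1, 0 and 2 members, all of them with Tyrobp and all mixed by their MHC class II or hepatocyte UMIs (at least 1%). These cells held 37.2% of the Tyrobp UMIs of NEVLP2 and 39.1% of those of naive members. Irf8, a transcription factor of dendritic cells and other leukocytes, had 60.9, 464, 119 and 340 CPM with Tyrobp, against 11.1, 95.2, 40.2 and 48.5 CPM without. Removing the highest doublet scores took 0, 4, 1 and 7 members, and the part of doublets in the split was not tested.

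**Figure D2:**
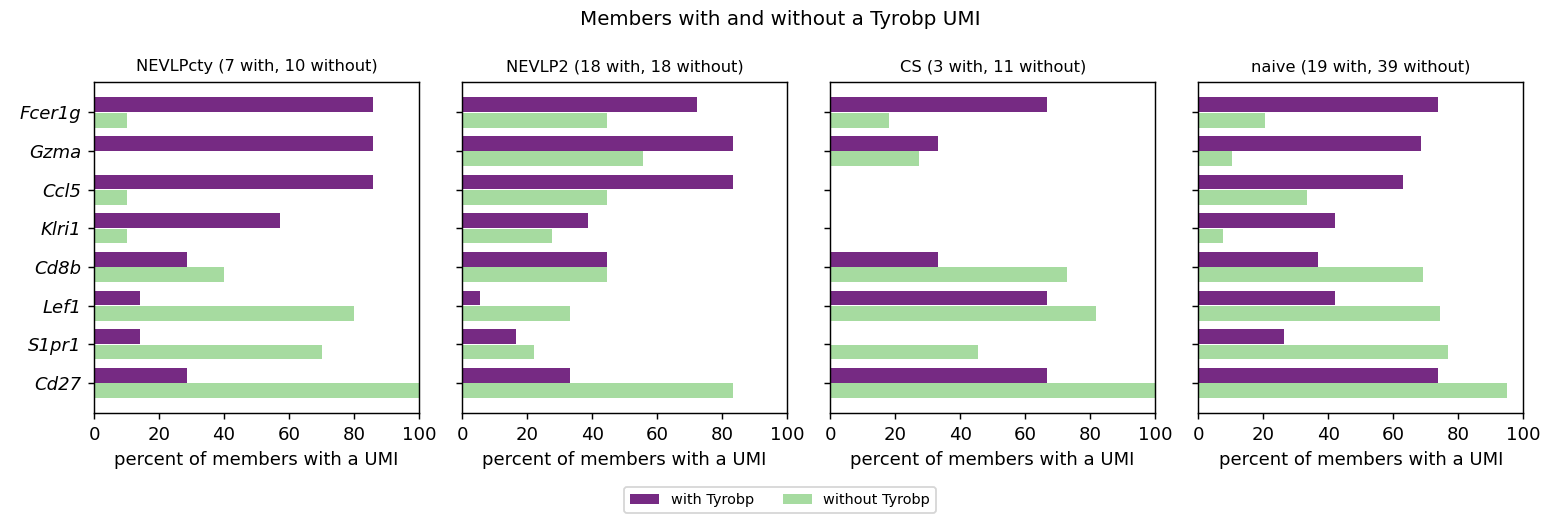
Percent of members with a UMI of each gene among members with a Tyrobp UMI (purple) and without one (green), per library, with the number of members in each panel title. Gzma and Fcer1g were seen in larger shares of members with Tyrobp, and Lef1, S1pr1 and Cd27 in larger shares of members without it. The CS panel rests on 3 members with Tyrobp, each with 1 Tyrobp UMI.

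Set against other lymphocytes of the same library, the members shared genes with NK-like barcodes and with CD8 T cells. Of 194 listed genes that could be measured in all 4 libraries against Cd3-negative Ly49-positive barcodes, 22 were at least 2-fold lower in members in each library, among them Prf1, Gzmb, Gzmk, Nkg7, Ccl5, Fcer1g, Syk and Klrg1. Perforin (Prf1) had 244, 1464, 64.2 and 271 CPM in members, against 3909, 8649, 4800 and 2531 CPM in those barcodes. Beyond the Cd3 genes, those at least 2-fold higher in members in each library were Klra22, Cd6, Skap1, Cd8b, Ctsw, Cxcr4 and Cd27. The stricter CD8 T cells without Ly49 held at least 5 Cd3 UMIs, no B cell list UMI and were not mixed. These limits were chosen after the data were seen, and members were not filtered by them. Against these cells, Gzma and Fcer1g were at least 2-fold higher and Cd8b at least 2-fold lower in members in each library. A Cd8a or Cd8b UMI chose these cells but not the members, so the Cd8b difference is partly set by the definitions. Cd8b had 158, 250, 233 and 134 CPM in members, against 383, 703, 777 and 359 CPM in those CD8 T cells. Rule genes take part in these contrasts, which are descriptions. The share of all genes lower in members is not given here, so the 22 of 194 describe the listed genes only. Many of those were listed as NK cell or killing genes.

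The 4 libraries were then compared in pairs. The comparisons were NEVLPcty with NEVLP2 for the added cytokines, NEVLP2 with CS for warm perfusion against cold storage, and NEVLP2 and CS each with naive liver. They share libraries, so they are not independent of each other, and a library that stands apart enters 2 or 3 of them. A gene was counted when it had at least 20 UMIs in both libraries together, and it was called at a ratio of at least 2-fold. Of all counted genes, 8.64% were higher and 12.6% lower in NEVLPcty than in NEVLP2. The shares higher and lower were 18.4% and 9.31% in NEVLP2 against CS. They were 13.8% and 18.5% in NEVLP2 against naive and 7.40% and 10.0% in CS against naive. Counts of list genes below are to be read beside these shares. For a gene with no UMI in 1 library the ratio was bounded with 3 counts in that library and is given as at least so many fold.

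Warm perfusion without cytokines went with higher killing genes in the members than in naive liver. In the list of cytotoxicity genes, 6 of 13 counted genes were at least 2-fold higher in NEVLP2 than in naive members and 0 were lower, with a median log2 ratio of 0.89, while 13.8% of all 5205 genes counted were higher and 18.5% lower, with a median of -0.05. Against CS, 7 of 12 were higher and 0 lower, with a median of 1.51, while 18.4% of all 2727 genes were higher and 9.31% lower. Under a scaling by the median of ratios, the median over all genes moved by -0.31 in NEVLP2 against naive, and the share of calls that were higher was 24.2% in place of 42.8%. The list then had 5 of 13 genes higher.

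Perforin makes pores in target cells. Prf1 had 34, 427, 8 and 220 UMIs in NEVLPcty, NEVLP2, CS and naive members, which is 244, 1464, 64.2 and 271 CPM. NEVLP2 members stood above all others and were 5.41-fold higher than naive members (4.59 to 6.39). One cell gave 52.9% of the NEVLPcty, 19.2% of the NEVLP2, 37.5% of the CS and 50.5% of the naive UMIs, and without the top cell of each library the ratio to naive was 8.75-fold. Among members with Tyrobp, Prf1 had 569, 2506, 79.2 and 735 CPM, against 66.6, 278, 60.4 and 81.4 CPM without, and NEVLP2 was 3.41-fold higher than naive among those without. Gzmk, which encodes granzyme K, had 395 CPM in NEVLPcty, 1478 in NEVLP2, 8.02 in CS and 424 in naive members. It was 3.48-fold higher in NEVLP2 than in naive (3.02 to 4.02) and 52.9-fold lower in CS than in naive (9.43 to 2095), since CS members held 1 UMI. One cell gave 69.1% of the NEVLPcty Gzmk UMIs.

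Granzymes A and B differed in how many cells carried them. Gzmb had 3, 446, 0 and 84 UMIs in NEVLPcty, NEVLP2, CS and naive members, from 2, 15, 0 and 9 cells, and 1 cell gave 36.8% of them in NEVLP2 and 60.7% in naive liver. It was 14.8-fold higher in NEVLP2 than in naive members (11.7 to 18.9). Gzma had 2039, 3644, 875 and 764 CPM, and 1 cell gave 92.7% of the CS counts. Faslg, the death ligand, had 64.6, 353, 40.1 and 66.4 CPM and was 5.32-fold higher in NEVLP2 than in naive members (3.79 to 7.53). Ctsw, a cathepsin of killer lymphocytes, had 1443, 1587, 1549 and 1092 CPM, and granzyme M (Gzmm) had 2032, 2095, 2552 and 1905 CPM, so these genes stayed within 2-fold in every comparison.

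After thinning every cell to 2000 UMIs, Prf1 was seen in 29.4% of NEVLPcty, 48.6% of NEVLP2, 7.14% of CS and 22.8% of naive members, and without thinning in 58.8%, 66.7%, 35.7% and 63.8%. Among hepatocyte barcodes, which should lack it, 0.485%, 3.42%, 1.24% and 0.491% held a Prf1 UMI. Thinning left out 0, 1, 0 and 1 members.

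**Figure D3:**
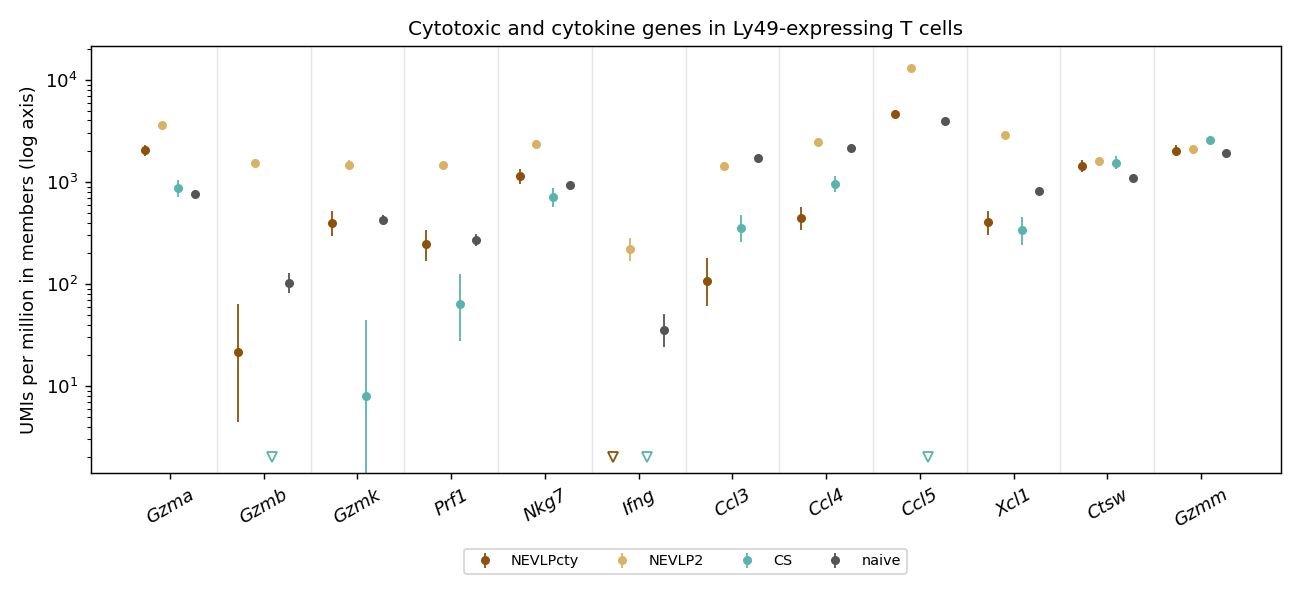
Levels of cytotoxic and cytokine genes in summed Ly49-expressing T cells, in CPM on a log axis, per library, with exact 95% Poisson intervals for counting error and open triangles at the foot of the axis for genes with no UMI. NEVLP2 points are highest for Prf1, Gzmb, Gzmk, Nkg7 and Xcl1, while Ctsw and Gzmm lie close together in all 4 libraries.

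Chemokines and cytokines of effector lymphocytes did not all follow the same order. The list had 4 of 7 counted genes at least 2-fold higher in NEVLP2 than in naive members and 0 lower, with a median log2 ratio of 1.19. The 4 were Ifng, Ccl5, Xcl1 and Tgfb1. Xcl1, which attracts cross-presenting dendritic cells, had 402, 2866, 337 and 812 CPM in NEVLPcty, NEVLP2, CS and naive members and was 3.53-fold higher in NEVLP2 than in naive (3.18 to 3.92), with 34.3% of the NEVLP2 and 38.2% of the naive UMIs from 1 cell each.

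Ccl5, a chemokine for T cells and monocytes, had 649, 3782, 0 and 3216 UMIs in NEVLPcty, NEVLP2, CS and naive members. That is 4659, 12965, 0 and 3956 CPM, from 7, 23, 0 and 25 cells. CS members were at least 164-fold lower than naive members, while Cd3-negative Ly49-positive barcodes of the CS library held 39207 CPM. Among hepatocyte barcodes, 6.72%, 13.3%, 8.14% and 8.06% held a Ccl5 UMI. Ifng had 0, 64, 0 and 29 UMIs, and 1 NEVLP2 cell gave 79.7% of its 64, so its 6.15-fold ratio of NEVLP2 to naive (3.91 to 9.89) rests largely on that cell and turned to a lower level in NEVLP2 when members with Tyrobp were left out.

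Ccl3 and Ccl4, chemokines of activated lymphocytes and macrophages, were as high in naive as in NEVLP2 members within 2-fold. Ccl3 had 108 CPM in NEVLPcty, 1433 in NEVLP2, 353 in CS and 1721 in naive members, and Ccl4 had 438, 2479, 963 and 2164 CPM. Both were lowest in NEVLPcty members. A Ccl3 UMI was held by 94.4% of NEVLP2 members and 38.4% of NEVLP2 hepatocyte barcodes, and a Ccl4 UMI by 88.9% of members and 56.9% of hepatocyte barcodes. In the other libraries the hepatocyte shares were 1.68 to 5.83%.

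Targets and subunits of the transcription factor NF-kB were higher in NEVLP2 members than in both controls. NF-kB is held in the cytoplasm by inhibitors of the IkB family until cytokine or antigen receptors release it, and it then switches on its own inhibitors and survival genes. Of 16 counted list genes, 13 were at least 2-fold higher in NEVLP2 than in naive members and 0 lower, with a median log2 ratio of 2.49. Over all genes counted there, 13.8% were higher and 18.5% lower. Against CS, 13 of 13 were higher, with a median of 2.37. In members without Tyrobp, 13 of 13 counted genes were higher in NEVLP2 than in naive, and 12 of 15 were with the 2 NEVLP2 and 5 naive members left out that had at least 1% MHC class II or hepatocyte UMIs. The scaling by the median of ratios kept 13 of 16. Other cells of the same libraries showed the difference as well. The summed list had 2189, 5742, 810 and 1097 CPM in members of NEVLPcty, NEVLP2, CS and naive liver. Stricter CD8 T cells without Ly49 had 1595, 5332, 530 and 598 CPM, and Cd3-negative Ly49-positive barcodes 3705, 6442, 1659 and 1480. All non-members had 7324, 8370, 1898 and 1983 CPM, and differences between these cell types were not tested.

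Nfkb1 and Nfkb2, which encode the precursors of 2 NF-kB subunits, were both higher in NEVLP2. Nfkb1 had 459 CPM in NEVLPcty, 459 in NEVLP2, 144 in CS and 102 in naive members, and NEVLP2 was 4.50-fold higher than naive (3.40 to 5.99). Nfkb2 had 136, 274, 24.1 and 18.5 CPM, and NEVLP2 was 14.9-fold higher than naive (8.50 to 27.8). Nfkbia, the inhibitor IkB-alpha, had 445, 1450, 281 and 465 CPM and was 3.12-fold higher in NEVLP2 than in naive (2.71 to 3.59).

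Bcl3, Icam1 and Birc3 had the widest ratios to naive among the 13 called genes. Icam1, an adhesion protein that binds leukocyte integrins, had 9, 75, 2 and 8 UMIs in NEVLPcty, NEVLP2, CS and naive members and was 26.1-fold higher in NEVLP2 than in naive (12.6 to 62.7). Birc3, an inhibitor of cell death, had 14, 94, 5 and 11 UMIs in NEVLPcty, NEVLP2, CS and naive members, from 8, 31, 4 and 8 cells. NEVLP2 was 23.8-fold higher than naive (12.7 to 49.3). Traf1, a signalling partner of TNF receptors, had 251, 778, 48.1 and 55.4 CPM and was 14.1-fold higher in NEVLP2 than in naive (10.2 to 19.8). The nuclear cofactor gene Bcl3 had 79.0, 189, 40.1 and 4.92 CPM, and NEVLP2 was 38.3-fold higher than naive (14.1 to 146). Bcl2a1, an anti-apoptotic Bcl2 relative, had 179, 1138, 80.2 and 176 CPM and was 6.47-fold higher in NEVLP2 than in naive (5.30 to 7.93).

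The promoters of the NF-kB list were searched for the kB motif GGGANTTTCC on both strands, because these genes moved together. It was found in 4 of 14 matched list genes and in 105 of 33469 RefSeq promoters (0.314%), and the letters of the Ly49 run above do not contain it. The windows with the motif in capitals (RefSeq, GRCr8) are chr1:255108274-255108373 on the plus strand for Nfkb2, chr6:78597073-78597172 on the minus strand for Nfkbia, chr11:58251621-58251720 on the plus strand for Nfkbiz and chr1:15543992-15544091 on the minus strand for Tnfaip3, each 5′ to 3′ along the coding strand.
Nfkb2: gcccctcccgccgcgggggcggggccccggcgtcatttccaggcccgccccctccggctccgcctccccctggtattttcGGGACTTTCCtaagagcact
Nfkbia: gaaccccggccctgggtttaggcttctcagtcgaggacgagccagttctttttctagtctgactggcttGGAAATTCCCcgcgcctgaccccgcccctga
Nfkbiz: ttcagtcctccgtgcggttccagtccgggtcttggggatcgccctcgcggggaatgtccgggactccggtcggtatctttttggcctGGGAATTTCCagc
Tnfaip3: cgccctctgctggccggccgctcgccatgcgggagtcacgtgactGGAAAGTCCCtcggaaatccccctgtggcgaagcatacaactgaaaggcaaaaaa
In Nfkbia and Tnfaip3 the capitals are the motif read on the other strand. Of these 4 genes, Nfkb2 and Nfkbia were called higher in NEVLP2 than in naive members, while Nfkbiz was 1.56-fold higher (0.903 to 2.62) and Tnfaip3 1.86-fold higher (0.816 to 4.08). A match or its absence in this window is a description and says nothing about binding.

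Interferon-induced genes and MHC class I genes were also higher in NEVLP2 members. Of 19 counted interferon response genes, 9 were at least 2-fold higher in NEVLP2 than in naive members and 1 lower, with a median log2 ratio of 0.92. Isg15, a ubiquitin-like protein induced by type I interferon, had 71.8, 655, 56.2 and 33.2 CPM in NEVLPcty, NEVLP2, CS and naive members and was 19.7-fold higher in NEVLP2 than in naive (13.1 to 30.7), with 35.6% of the NEVLP2 UMIs from 1 cell. The guanylate-binding protein gene Gbp5 had 179, 435, 64.2 and 51.7 CPM and was 8.43-fold higher in NEVLP2 than in naive (5.90 to 12.2).

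Of 14 counted genes of MHC class I presentation, 8 were higher in NEVLP2 than in naive members and 0 lower, with a median of 1.07, and 5 were higher under the median-of-ratios scaling. Tap1, a peptide transporter subunit, had 251, 528, 281 and 112 CPM in NEVLPcty, NEVLP2, CS and naive members and was 4.72-fold higher in NEVLP2 than in naive (3.62 to 6.18). B2m, the light chain of class I molecules, which are the ligands of Ly49 receptors, had 10445, 16157, 8754 and 7993 CPM. It was 2.02-fold higher in NEVLP2 than in naive members (1.95 to 2.10).

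Transcripts of other cell types were present in the member sums. The dendritic cell list, which holds the MHC class II genes, summed to 488, 18841, 730 and 1063 CPM in NEVLPcty, NEVLP2, CS and naive members. Mixed members, defined by at least 1% MHC class II or hepatocyte UMIs, numbered 0, 2, 1 and 5, and without them the dendritic list summed to 488, 1440, 765 and 589 CPM. One of the 2 in NEVLP2 held 24542 UMIs with 19.2% of MHC class II and gave 81.1% of the library's Cd74 counts in members. The hepatocyte list summed to 546, 1268, 1821 and 3512 CPM with all members and to 546, 1362, 400 and 443 CPM without the mixed ones. Genes of Kupffer cells and macrophages summed to 57.4, 377, 337 and 68.9 CPM in the 4 libraries, with 5, 8, 9 and 10 of 11 genes seen, and genes of B cells to 7.18, 175, 8.02 and 39.4 CPM, with 1, 4, 1 and 5 of 11. Without the 2 NEVLP2 and 5 naive mixed members, 9 of 17 interferon genes and 8 of 14 MHC class I genes were higher in NEVLP2 than in naive members.

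Receptors of costimulation and inhibition moved both ways. Of 12 counted genes of that list, 4 were at least 2-fold higher in NEVLP2 than in naive members and 4 lower, with a median log2 ratio of 0.37. Tnfrsf9, Tnfrsf18, Socs1 and Cish were higher, and Tigit, Cd244, Icos and Cd27 were lower. Of 22 counted immediate early genes, 3 were higher and 4 lower, with a median of -0.18. Over all 5205 genes counted, 13.8% were higher and 18.5% lower, so the immediate early counts lay near the shares over all genes. Cd27, a costimulatory receptor that resting T cells carry, had 251, 219, 473 and 466 CPM in NEVLPcty, NEVLP2, CS and naive members and was 2.12-fold lower in NEVLP2 than in naive (1.63 to 2.81).

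The genes with the highest ratios to naive included some known from T cell activation. Il2ra, the high-affinity chain of the interleukin-2 receptor, had 43.1, 182, 48.1 and 13.5 CPM in NEVLPcty, NEVLP2, CS and naive members, and NEVLP2 was 13.4-fold higher than naive (6.93 to 28.5). Batf, a factor of activated CD8 T cells, had 100, 545, 177 and 60.3 CPM and was 9.04-fold higher (6.53 to 12.7).

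The costimulatory receptor Tnfrsf18 (GITR) had 187, 453, 144 and 72.6 CPM and was 6.24-fold higher in NEVLP2 than in naive members (4.55 to 8.63). Resf1, a silencing factor of retroelements, had 416, 1906, 193 and 87.3 CPM and was 21.8-fold higher (17.0 to 28.4). Further genes among the 10 highest ratios were Mxd1 (17.8-fold), Furin (9.85-fold) and Arl5c. Tnfrsf9, which encodes 4-1BB, had 122, 429, 24.1 and 51.7 CPM, and 1 cell gave 94.1% of the NEVLPcty, 42.4% of the NEVLP2 and 69.0% of the naive UMIs.

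Genes of circulation were divided between lower and higher in NEVLP2 members. In the list of egress and naive-state genes, 5 of 12 counted genes were lower and 3 higher in NEVLP2 than in naive members, beside 18.5% of all counted genes lower and 13.8% higher. Lower genes included S1pr1, S1pr4, Lef1 and Ccr9, and higher genes included Tcf7 and Cxcr3. S1pr1 had 201, 27.4, 96.3 and 143 CPM in NEVLPcty, NEVLP2, CS and naive members and was 5.20-fold lower in NEVLP2 than in naive (2.55 to 12.3). Cxcr3, a receptor for chemokines of inflamed tissue, had 337, 305, 249 and 139 CPM and was 2.20-fold higher (1.64 to 2.92). Il18r1, a receptor chain for interleukin-18, had 14.4, 6.86, 48.1 and 67.7 CPM and was 9.87-fold lower (2.60 to 83.5).

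With IL-10 and TGF-β in the perfusate, members carried more of the feedback genes of TGF-β signalling. TGF-β receptors phosphorylate Smad proteins, which switch on inhibitors of the same pathway such as Smad7 and Pmepa1. Of 6 counted TGF-β response genes, 5 were at least 2-fold higher in NEVLPcty than in NEVLP2 members and 0 lower, with a median log2 ratio of 2.04, while 8.64% of all 2801 genes were higher and 12.6% lower, with a median of -0.07. In members without Tyrobp 4 of 6 were higher, with a median of 1.88.

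Pmepa1, which retains receptor-regulated Smads, had 71, 18, 0 and 4 UMIs in NEVLPcty, NEVLP2, CS and naive members, from 14, 10, 0 and 3 cells. That is 510, 61.7, 0 and 4.92 CPM, and NEVLPcty was 8.26-fold higher than NEVLP2 (4.87 to 14.7). NEVLP2 itself was 12.5-fold higher than naive (4.13 to 50.9). Smad7, the inhibitory Smad, had 64, 26, 5 and 60 UMIs, or 459, 89.1, 40.1 and 73.8 CPM, and was seen in all 17 NEVLPcty members. It was 5.15-fold higher in NEVLPcty than in NEVLP2 (3.22 to 8.47). In NEVLPcty members it had 27 UMIs in the 7 cells with Tyrobp and 37 UMIs in the 10 cells without.

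Of the other 4 counted genes of the TGF-β list, 3 were called higher and 1 was not. Ldlrad4, which also restrains Smad activation, had 129, 20.6, 24.1 and 7.38 CPM and was 6.28-fold higher in NEVLPcty than in NEVLP2 (2.39 to 19.3). Tgif1, a Smad corepressor, had 179, 54.9, 24.1 and 23.4 CPM and was 3.27-fold higher (1.68 to 6.56). Tgfb1, the ligand gene, had 976, 477, 281 and 209 CPM and was 2.05-fold higher (1.61 to 2.61). Skil, another corepressor, had 136, 130, 24.1 and 17.2 CPM, and NEVLPcty differed from NEVLP2 by 1.05-fold (0.570 to 1.86), so it was high in both perfused livers. Transcripts of the receptors themselves were scarce: Tgfbr1 had 1, 4, 3 and 13 UMIs and Tgfbr2 had 4, 2, 2 and 5.

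Other lymphocytes of the same libraries showed these genes as well. The stricter CD8 T cells without Ly49, as defined above, had 292 CPM of Pmepa1 in NEVLPcty and 124 in NEVLP2. Cd3-negative Ly49-positive barcodes had 382 CPM in NEVLPcty and 52.2 in NEVLP2. For Smad7 the CD8 T cells had 292 and 179 CPM and the Cd3-negative barcodes 444 and 115 CPM in NEVLPcty and NEVLP2. The differences in response between these cell types were not tested.

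**Figure D4:**
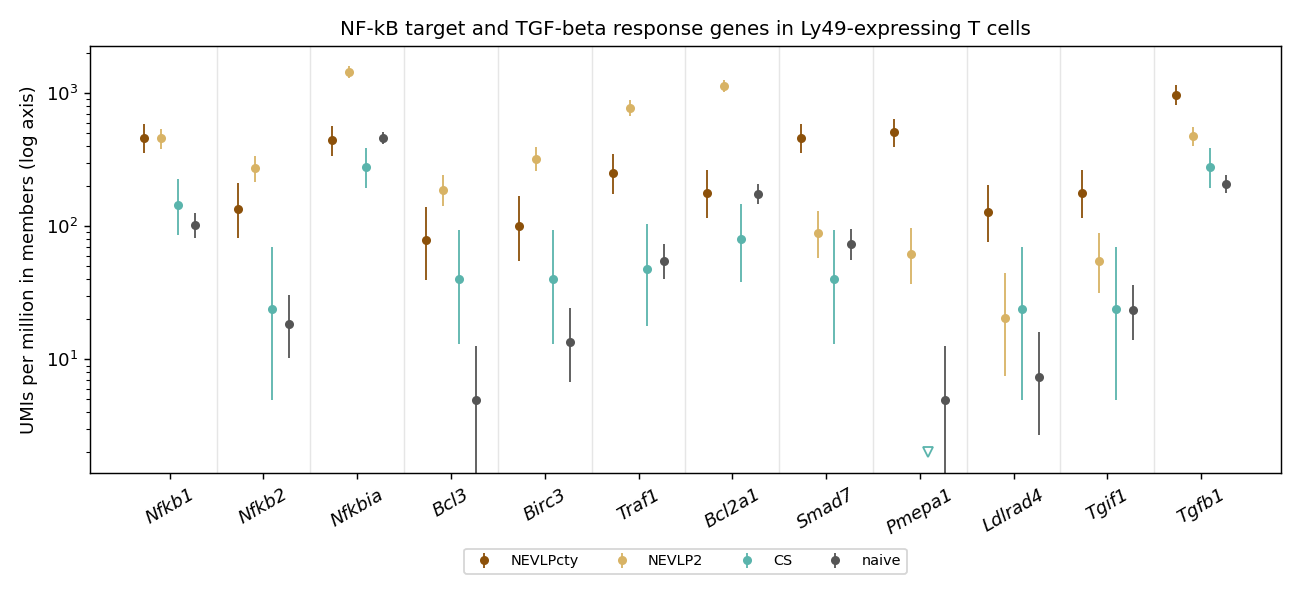
Levels of NF-kB target genes and TGF-β response genes in summed Ly49-expressing T cells, in CPM on a log axis, per library, with exact 95% Poisson intervals for counting error and an open triangle where no UMI was found. NEVLPcty points are highest for Smad7, Pmepa1, Ldlrad4, Tgif1 and Tgfb1, and NEVLP2 points for Nfkb2, Nfkbia, Bcl3, Birc3, Traf1 and Bcl2a1, while Nfkb1 is at 459 in both perfused livers.

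NF-kB genes were lower with the added cytokines. Of 14 counted NF-kB genes, 9 were at least 2-fold lower in NEVLPcty than in NEVLP2 members and 0 higher, with a median log2 ratio of -1.35. Nfkbia was 3.26-fold lower in NEVLPcty than in NEVLP2 (2.49 to 4.33), Birc3 3.21-fold lower (1.82 to 6.09) and Traf1 3.10-fold lower (2.16 to 4.56). Nfkb1 was the exception among those described, with a ratio of 1.00 (0.731 to 1.36). Nfkb2 was 2.01-fold lower (1.21 to 3.51), and its direction turned when barcodes were thinned to 2000 UMIs before the rule.

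The size of these differences was not the same with and without Tyrobp. Among members without Tyrobp, 9 of 10 counted NF-kB genes were lower in NEVLPcty, with a median of -2.48. Birc3 had 22.2 CPM in NEVLPcty and 359 in NEVLP2 members without Tyrobp, and Traf1 had 99.9 and 952 CPM. Among members with Tyrobp, Birc3 had 244 CPM in NEVLPcty and 290 in NEVLP2, Traf1 had 528 and 625 CPM, and Nfkb2 had 223 and 251 CPM. Nfkbia had 650 and 1301 CPM with Tyrobp, and Nfkb1 was the higher in NEVLPcty there, with 812 and 412 CPM. The difference between the subsets was not tested.

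Killing and cytokine genes were lower in NEVLPcty than in NEVLP2 members too. Of 12 counted cytotoxicity genes, 6 were lower in NEVLPcty than in NEVLP2 members and 0 higher, with a median of -0.95. Prf1 was lower by 4.23 to 8.77-fold as an interval, Gzmk 3.74-fold lower (2.82 to 5.05) and Nkg7, a protein of cytotoxic granules, 2.10-fold lower (1.76 to 2.51) at 1134 CPM in NEVLPcty and 2379 in NEVLP2. Gzma was 1.79-fold lower (1.57 to 2.04) and so was not called. Of 6 counted effector cytokine genes 5 were lower and 1, Tgfb1, was higher. Ccl3 was 13.3-fold lower (7.98 to 24.0), Xcl1 7.13-fold lower (5.44 to 9.52) and Ccl4 5.66-fold lower (4.35 to 7.48). Ccl5 was 2.78-fold lower (2.56 to 3.03) and turned to a higher level in NEVLPcty when barcodes were thinned to 2000 UMIs before the rule, which left 9 and 21 members.

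Of 11 counted interferon response genes, 8 were lower and 0 higher in NEVLPcty than in NEVLP2, among them Isg15 at 9.12-fold lower (4.85 to 19.3). With the 2 mixed NEVLP2 members left out, 8 of 11 were lower as well. The ranked genes lower in NEVLPcty were led by Cd82, a tetraspanin of the T cell surface, with 35.9 CPM in NEVLPcty, 470 in NEVLP2, 96.3 in CS and 72.6 in naive members, a 13.1-fold difference (5.47 to 40.9). Parp14 was 7.46-fold lower (3.67 to 17.7), Slfn4 6.70-fold lower (4.50 to 10.4), Faslg 5.47-fold lower (2.77 to 12.3) and Batf 5.42-fold lower (3.14 to 10.1). Cd69, which keeps T cells in tissue by removing S1pr1 from the surface, had 100, 405, 409 and 292 CPM and was 4.03-fold lower in NEVLPcty than in NEVLP2 (2.31 to 7.59).

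Genes of resting and recirculating T cells were divided between NEVLPcty and NEVLP2. Of 9 counted genes of the egress and naive-state list, 4 were higher in NEVLPcty than in NEVLP2 and 3 lower, with a median log2 ratio of 0.73. S1pr1, S1pr4, Klf3 and Lef1 were higher, and those lower included Tcf7 and Satb1, transcription factors of T cells. Tcf7 had 28.7, 78.8, 104 and 38.1 CPM in NEVLPcty, NEVLP2, CS and naive members. Among the ranked genes, Zfp36l2, which destabilises mRNAs of activated cells, had 1665, 329, 1204 and 1117 CPM in NEVLPcty, NEVLP2, CS and naive members and was 5.06-fold higher in NEVLPcty (3.97 to 6.49). NEVLP2 was the low library for this gene. S1pr1 was 7.33-fold higher in NEVLPcty than in NEVLP2 (3.25 to 18.6), though 1 cell gave 42.9% of the NEVLPcty UMIs. Lef1 had 223, 54.9, 209 and 183 CPM and was 4.06-fold higher (2.15 to 7.94). Tsc22d3, the glucocorticoid-induced leucine zipper, had 158, 41.1, 401 and 260 CPM and was 3.84-fold higher (1.82 to 8.51).

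Cd9, a tetraspanin, followed another order, with 904, 147, 160 and 121 CPM. It was 6.14-fold higher in NEVLPcty than in NEVLP2 (4.31 to 8.89), and the other 3 libraries lay within 2-fold of each other. Lpxn, an adhesion adaptor, had 524, 127, 144 and 116 CPM and was 4.13-fold higher (2.75 to 6.31). Vgll4, Inpp5d, Mxd4, Art2b and Itm2a completed the ranked list. Of the 5 counted genes of the IL-10 and STAT3 list, 0 were higher and 2, Bcl3 and Cish, lower in NEVLPcty. Stat3 had 294, 432, 128 and 80.0 CPM, Il10ra had 3, 1, 2 and 2 UMIs, and Socs3 had 0, 2, 0 and 2 UMIs.

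Early response and effector genes were among those lower in cold storage than in naive liver. In all, 351 genes were higher and 476 lower. Of 20 counted immediate early genes, 10 were at least 2-fold lower in CS than in naive members and 0 higher, with a median log2 ratio of -1.02, while 10.0% of all 4746 genes were lower and 7.40% higher, with a median of 0.04. Under the median-of-ratios scaling the median over all genes moved by -0.19, the share of calls that were higher was 22.6% in place of 42.4%, and 11 of 20 list genes were lower.

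Junb, a subunit of the transcription factor AP-1, had 991, 1320, 329 and 1953 CPM in NEVLPcty, NEVLP2, CS and naive members and was 5.94-fold lower in CS than in naive (4.36 to 8.31). Dusp1, a phosphatase that ends MAP kinase signals, had 43.1, 89.1, 104 and 236 CPM and was 2.26-fold lower in CS than in naive (1.29 to 4.33). Fos had 416, 494, 514 and 426 CPM and Jun 244, 309, 465 and 512 CPM, so these AP-1 genes stayed within 2-fold between CS and naive members. Early response genes can also be induced while a tissue is dissociated, which was not tested.

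Of 8 counted effector cytokine genes, 4 were lower in CS than in naive members and 1 higher. Ccl3 was 4.87-fold lower (3.61 to 6.74) and Ccl4 2.25-fold lower (1.87 to 2.73), and the Ccl4 difference turned to 0.09 on the log2 scale when barcodes were thinned before the rule. Prf1 was 4.22-fold lower in CS than in naive members (2.10 to 9.89), but only 1.35-fold lower among members without Tyrobp. Members with Tyrobp were 3 of 14 in CS and 19 of 58 in naive liver, and 1 cell gave 50.5% of the naive UMIs. Ddit3, a transcription factor of the integrated stress response, had 86.1, 103, 8.02 and 103 CPM and was 12.9-fold lower in CS than in naive members (2.25 to 515), because CS members held 1 UMI.

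Few antigen presentation and interferon genes were called between CS and naive members. Of 14 counted MHC class I presentation genes 2 were higher and 0 lower, and of 17 interferon response genes 2 were higher and 1, Irf8, lower, beside 7.40% of all genes higher and 10.0% lower. Tap1 was 2.51-fold higher in CS than in naive members (1.65 to 3.74) and Irf1, an interferon regulatory factor with 230, 329, 249 and 116 CPM, was 2.15-fold higher (1.39 to 3.26). The ranked list held Gabbr1 at 3.20-fold (1.94 to 5.16), with Sbno1, Mob3a, R3hdm4, Uhrf2, Nlrp1a, Yy1, Cmc1 and Dctn3. T cell identity genes had 0 of 12 higher and 0 lower, with a median of 0.15, and CS members numbered 14, of which 3 had Tyrobp.

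Called genes of killing, of effector cytokines and of NF-kB were higher in NEVLP2 than in CS members, 7 of 12, 5 of 6 and 13 of 13 counted genes, and 0 were lower. The median log2 ratio was 1.51 over the cytotoxicity list, 2.55 over the effector cytokines and 2.37 over the NF-kB list, beside 0.10 over all genes. The dendritic list, whose sums are given above, had a median of 4.76. Gzmk was 184-fold higher in NEVLP2 than in CS members (32.9 to 7290), Prf1 22.8-fold (11.5 to 53.2) and Traf1 16.2-fold (7.31 to 44.5). Ccl5 was at least 539-fold higher in NEVLP2. The ranked genes also held Mxd1 at 27.3-fold (4.73 to 1097) and Cks2, a cell cycle kinase subunit, at 24.8-fold (6.71 to 207). Genes lower in NEVLP2 than in CS were led by Anxa2, a membrane-binding annexin, which had 144, 89.1, 393 and 379 CPM in NEVLPcty, NEVLP2, CS and naive members and was 4.41-fold lower (2.69 to 7.39), and by Cytip, an adhesion regulator, at 4.33-fold lower (2.66 to 7.20). CS and naive members were alike in Anxa2 within 1.04-fold (0.751 to 1.41).

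**Figure D5:**
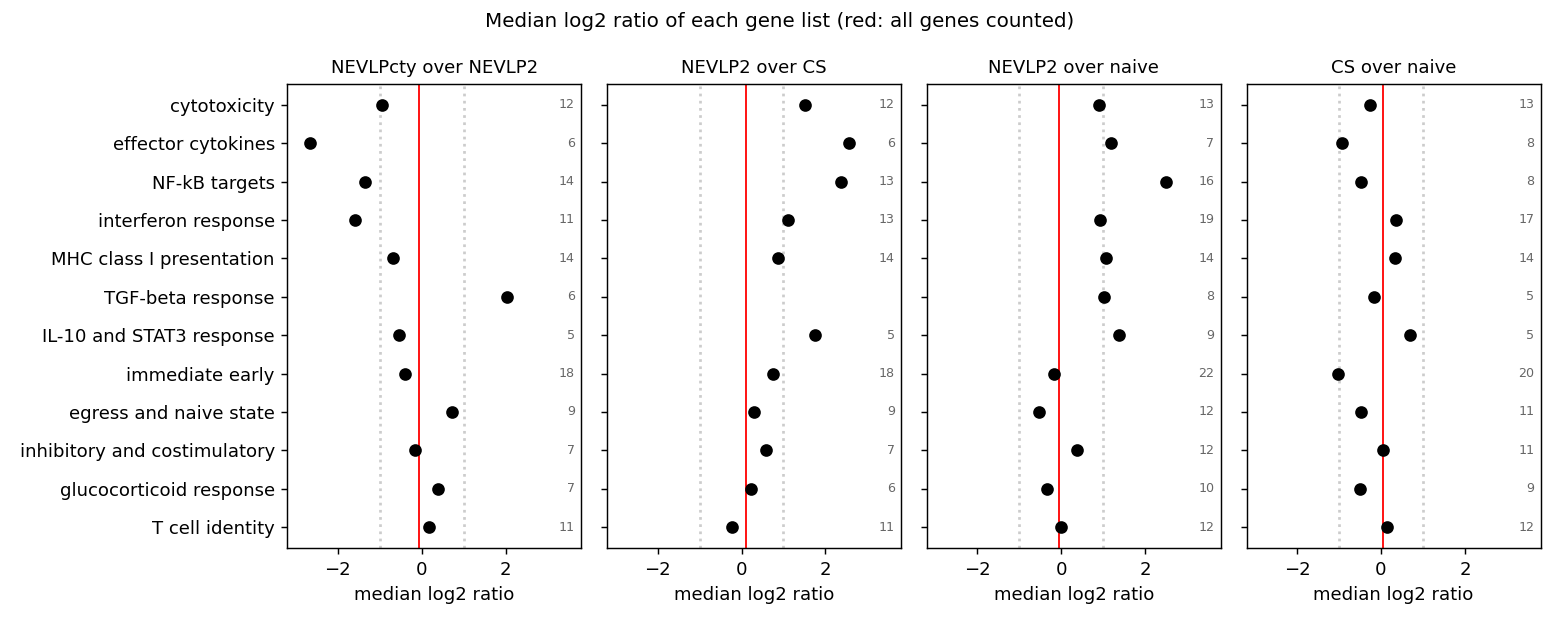
Median log2 ratio of each gene list in the members for the 4 comparisons, with the number of counted genes at the right, the median over all counted genes as a red line and dotted lines at 2-fold; lists with under 4 counted genes have no point. NF-kB targets stand at 2.49 in NEVLP2 over naive and at -1.35 in NEVLPcty over NEVLP2, the TGF-β list at 2.04 in NEVLPcty over NEVLP2, and T cell identity genes near 0 throughout.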

How the data were processed

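Raw UMI counts per gene and barcode from 4 rat liver libraries were used as deposited by the authors. They came from 10x Genomics Cell Ranger, version 6.0.0 per the file headers and 2.1.1 per the submitters' processing notes, and the sources used here name no genome build. Barcodes were retained from 200 genes and 500 UMIs upwards, unless over 20% of their UMIs were mitochondrial. Counts of features sharing a symbol were summed. Members, their gene lists and comparisons were chosen with earlier results of these data known.

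Counts were summed over members per library and set per 1000000 UMIs. A gene was counted with at least 20 UMIs in both libraries together and called at 2-fold. Intervals were exact Poisson, Clopper-Pearson binomial or conditional binomial at 95%, and a gene at 0 was bounded with 3 counts. Simulated counts were used to test the scripts. Genes named were those of role lists (32 list symbols were not analysed here) and, per comparison, the 10 highest and 10 lowest ratios among genes with at least 50 counts, a UMI in at least 10 members of the higher library, at most 25% of its counts from 1 cell, a level there at or above that of non-members, and no mitochondrial or ribosomal protein symbol. Symbols of unnamed loci were left out of the text, and a few other genes are not reported here. Hepatocyte barcodes had at least 10% of UMIs from hepatocyte genes and no Cd3 or Ptprc UMI.

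No doublets were removed in the main results. The Scrublet caller (Scanpy 1.11.5) called 0 barcodes in NEVLPcty, 208 in NEVLP2, 326 in CS and 6 in naive liver, so it did not work in 2 libraries, and removal of the highest scores was an alternative. Software was Python 3.11.15 with Biopython 1.88, pandas 2.3.3, SciPy 1.17.1, NumPy 2.4.6 and Matplotlib 3.10.9. Promoters were taken from RefSeq.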

Additional observations from a re-analysis of the deposited data

How the results depend on the processing

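Shares of members among retained barcodes moved by more than their interval only when members with Tyrobp were left out, to 0.177% in NEVLP2 and 1.18% in naive liver. That alternative, the removal of mixed barcodes and the removal of the deepest member were chosen after seeing the data. Genes called in either direction numbered 596 in NEVLPcty against NEVLP2, 755 in NEVLP2 against CS, 1681 in NEVLP2 against naive and 827 in CS against naive. Thinning every cell to 2000 UMIs, which left 9, 21, 9 and 35 members in NEVLPcty, NEVLP2, CS and naive liver, gave 92, 122, 235 and 104 calls in these comparisons. A minimum of 50 counts gave 195, 275, 745 and 266, and no minimum gave 2654, 2981, 3251 and 2413. Members without Tyrobp gave 373 in NEVLPcty against NEVLP2 and 437 in NEVLP2 against CS. Fewer counts, fewer cells or more low genes enter by the construction of these settings.

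Of 3124 recomputed ratios of named genes that had been called, 147 fell below 2-fold and 6 reversed. The 6, on the log2 scale, were Ccl5 (0.68) and Nfkb2 (0.33) in NEVLPcty against NEVLP2 and Ccl4 (0.09) in CS against naive after thinning, Ifng (-0.79) in NEVLP2 against naive without members with Tyrobp, Irf8 (-0.20) in NEVLP2 against naive without mixed members, and Klf3 (0.02) in CS against naive with at least 3 Ly49 UMIs; the cause was not tested. Of 240 recomputed list medians that had been called, 34 fell below 2-fold and 0 reversed. No paired analysis was possible because each group was 1 library. Members were few, so genes with under 20 UMIs in a pair of libraries, cytokine receptors among them, could not be compared, and 1 cell often gave over 25% of a gene's UMIs.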

Other observations

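Genes of the integrated stress response, cell death and glycolysis gave further values. Of 8 counted stress genes, 6 were at least 2-fold higher in NEVLP2 than in CS members and 0 lower, beside 18.4% of all counted genes higher and 9.31% lower. Among the 6 was Atf4, a translation-controlled transcription factor with 567 CPM in NEVLPcty, 833 in NEVLP2, 273 in CS and 411 in naive members. Of 12 counted apoptosis and p53 genes, 6 were higher and 3 lower in NEVLP2 than in naive members. Fas, a death receptor, had 28.7, 103, 0 and 6.15 CPM, and Bcl2, a survival gene, had 151, 34.3, 241 and 97.2 CPM and was 2.83-fold lower in NEVLP2 than in naive members (1.46 to 6.14). Bcl2 thus ran opposite to its relative Bcl2a1, whose values are given above.

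Of 11 counted glycolysis and hypoxia genes, 3 were higher and 0 lower in NEVLP2 than in naive members, beside 13.8% of all counted genes higher and 18.5% lower. The 3 were Pfkl, Aldoa and Slc2a1. Members with at least 3 UMIs of Mki67 or Top2a were few, with 1 in NEVLPcty, 1 in NEVLP2, 1 in CS and 3 in naive liver. They gave 35.2%, 50.4%, 30.8% and 73.2% of the cell cycle list's UMIs, and other members gave the rest.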
